A study of Rattus norvegicus with 24 samples.

Results

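Protease inhibitors made in the hippocampus were described across age and learning ability in 7 genes: A2m, Timp2, Timp3, Cst3, Cstb, Serpini1 and Serpine2. They were chosen by gene symbol from the inhibitor families, with the age differences of these same arrays already known. All probe sets that the platform annotation gave to exactly 1 of these symbols were kept. This gave 12 probe sets of 31099, and all 12 passed the limit on dim signals (6 or more arrays above a log2 value of 4). Each gene was represented by its brightest probe set, so that the 7 genes stood among 9076 genes tested. Total RNA came from the dissected CA1 field of the hippocampus of untreated male Long-Evans rats, with 1 array per biological replicate. The groups were young rats of 6 months (9 arrays), aged unimpaired rats of 24 to 26 months (6 arrays) and aged impaired rats of the same ages (8 arrays). A learning index from trials in a water maze, where rats search for a hidden platform, placed unimpaired aged rats within the range of the young rats and impaired aged rats beyond it. All rats were housed singly and had been trained in the maze before the tissue was taken.

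Proteases cut proteins of the matrix, the blood and the lysosome, and each class is held in check by its own inhibitors. Alpha-2-macroglobulin, the product of A2m, traps proteases of every class in a molecular cage and passes them to the receptor Lrp1. In the rat it is also a classical acute phase protein. Timps block metalloproteinases of the matrix, cystatins block lysosomal cysteine proteases, and the serpins of the brain block thrombin and the plasminogen activators, which act at synapses and in the vessel wall.

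Over all probe sets the medians of the arrays ran from 4.2 to 4.28 on the log2 scale. Over the genes tested they ran from 8.30 (aged impaired replicate 8) to 8.56 (aged impaired replicate 5). The number of arrays limits the precision of every comparison. RNA quality was read from control transcripts as the 3 prime minus the 5 prime log2 signal, which ran from 1.21 to 1.34 in young, 1.23 to 1.34 in aged unimpaired and 1.22 to 1.35 in aged impaired arrays. Its median was 1.23 in young, 1.31 in aged unimpaired and 1.26 in aged impaired arrays. The column of 1 further aged unimpaired array was blank and was not used. The CA1 markers on the array all passed the limit (5 of 5), as did 7 of 8 markers of CA3 and CA2 and 2 of 5 markers of dentate granule cells. Ttr, a marker of choroid plexus, ran from 5.69 to 9.50 in young, 4.74 to 7.79 in aged unimpaired and 6.30 to 9.50 in aged impaired arrays, and the part of tissue at the edge of the dissection in the members' values was not tested.

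Promoter sequence was available for 6 of the 7 genes from RefSeq on GRCr8. The 250 bases before the start of Timp2 (chr10:104089215-104089464, minus strand) and of Cstb (chr20:10247200-10247449, minus strand) are shown because these genes, besides A2m, differed most with age on their brightest probe set. They are written from 5 prime to 3 prime, ending at the base before the start. Capitals mark matches, on either strand, to the E-box CACGTG, to TGACNNNGC (the core of the antioxidant response element), to the Stat motif TTCNNNGAA and to the GC box GGGCGG.
Timp2: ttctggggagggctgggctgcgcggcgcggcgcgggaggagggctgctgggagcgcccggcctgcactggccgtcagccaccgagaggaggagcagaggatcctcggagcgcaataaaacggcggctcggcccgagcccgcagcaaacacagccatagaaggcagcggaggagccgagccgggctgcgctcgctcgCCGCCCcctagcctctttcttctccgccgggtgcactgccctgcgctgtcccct
Cstb: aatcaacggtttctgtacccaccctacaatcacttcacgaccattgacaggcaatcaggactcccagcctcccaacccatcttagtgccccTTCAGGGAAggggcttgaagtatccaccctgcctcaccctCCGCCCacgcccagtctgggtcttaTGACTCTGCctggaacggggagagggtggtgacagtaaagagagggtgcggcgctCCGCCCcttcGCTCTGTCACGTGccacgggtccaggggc
The Cstb window held 1 match to CACGTG, 2 to TGACNNNGC, 1 to TTCNNNGAA and 2 to GGGCGG. Its last capital run joins a TGACNNNGC match on the opposite strand to the CACGTG match that overlaps it. The Timp2 window held a single GGGCGG match, 54 bases before the start, and none of the other motifs. Among 33469 promoter windows of this length, 5.59% held CACGTG, 10.1% TGACNNNGC, 7.67% TTCNNNGAA and 30.5% GGGCGG. Timp3 held 3 matches to GGGCGG, Cst3 held 1, Serpine2 held 6 and Serpini1 held none of the 4 motifs. A match describes these letters and not a bound factor.

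A2m showed the largest difference with age of the 7 genes. Its log2 signal (probe set 1367794_at) had a lowest, median and highest value of 6.25, 6.86 and 7.21 in young arrays. The corresponding values were 6.52, 7.84 and 7.97 in aged unimpaired arrays. In aged impaired arrays they were 7.25, 7.83 and 8.19. Every impaired array lay above every young array, as did all unimpaired arrays but replicate 1, so that 13 of 14 aged arrays stood clear of the young group. The mean was 6.81 ± 0.31 (SD, n = 9) in young and 7.71 ± 0.44 (SD, n = 14) in aged arrays, a log2 difference of 0.91 ± 0.16 (SE), or 1.87-fold. A2m was also the most variable of the members among rats of 1 group, with a within-group SD of 0.398 that was larger than that of 97.5% of the genes tested. In bulk tissue such as this, fewer or more cells of a type and less or more RNA per cell cannot be told apart.

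**Figure D1:**
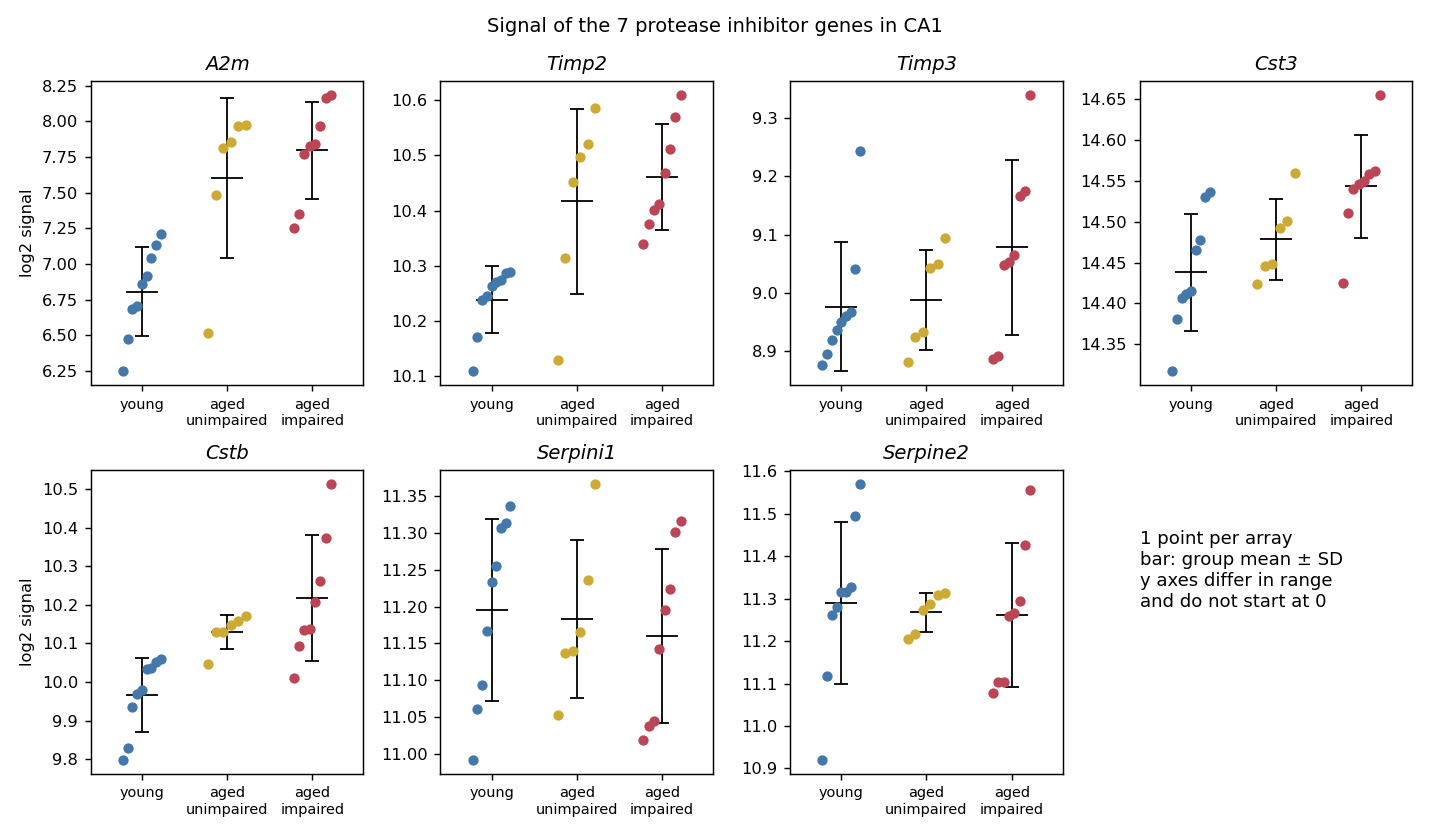
Log2 signal of the brightest probe set of each gene (vertical axes, each with its own range) by group, with 1 point per array and bars for the group mean ± SD. A2m, Timp2 and Cstb sit higher in aged arrays, while Serpini1 and Serpine2 overlap between groups; aged unimpaired replicate 1 is the low point of A2m at 6.52.

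Timp2, the secreted inhibitor of metalloproteinases that also takes part in activating Mmp2, was higher in aged CA1 by a small and even step on its brighter probe set (1386940_at). Its lowest, median and highest log2 signals were 10.11, 10.26 and 10.29 in young arrays. They were 10.13, 10.47 and 10.59 in aged unimpaired arrays. They were 10.34, 10.44 and 10.61 in aged impaired arrays. Again 13 of 14 aged arrays lay above every young array, and the exception was unimpaired replicate 1, the same array as for A2m. The mean was 10.24 ± 0.06 (SD, n = 9) in young and 10.44 ± 0.13 (SD, n = 14) in aged arrays, a log2 difference of 0.20 ± 0.05 (SE), or 1.15-fold. The dimmer Timp2 probe set (1367823_at) did not show this step. It ran from 8.50 to 9.21 in young arrays, 8.76 to 9.09 in unimpaired arrays and 8.64 to 9.22 in impaired arrays, with a log2 difference of 0.02 ± 0.08 (SE) between aged and young. A single aged array exceeded all young ones on it. Across the 23 arrays, with each group's mean removed, the 2 Timp2 probe sets correlated weakly (r = 0.21, rho = 0.40), which is given as a description.

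Timp3, the member of the family that stays bound to the matrix and also restrains Adam17, was measured by 4 probe sets. The brightest (1389836_a_at) ran from 8.88 to 9.24 in young arrays (median 8.95), 8.88 to 9.09 in unimpaired arrays (median 8.99) and 8.89 to 9.34 in impaired arrays (median 9.06). The groups overlapped almost throughout, and the log2 difference between aged and young was 0.06 ± 0.05 (SE). Of the others, 1375138_at ran from 7.73 to 8.93 in young and from 8.27 to 8.99 in impaired arrays, with a log2 difference of 0.25 ± 0.11 (SE) between aged and young. On that probe set 13 of 14 aged arrays lay above the young median, but a single one lay above all young arrays. The other two were dim. 1372926_at averaged 4.28 in young and 4.45 in aged arrays, and 1368989_at averaged 3.97 and 4.24, close to the limit of 4. Within groups the Timp3 probe sets were loosely related at best, with r from -0.06 to 0.48.

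**Figure D2:**
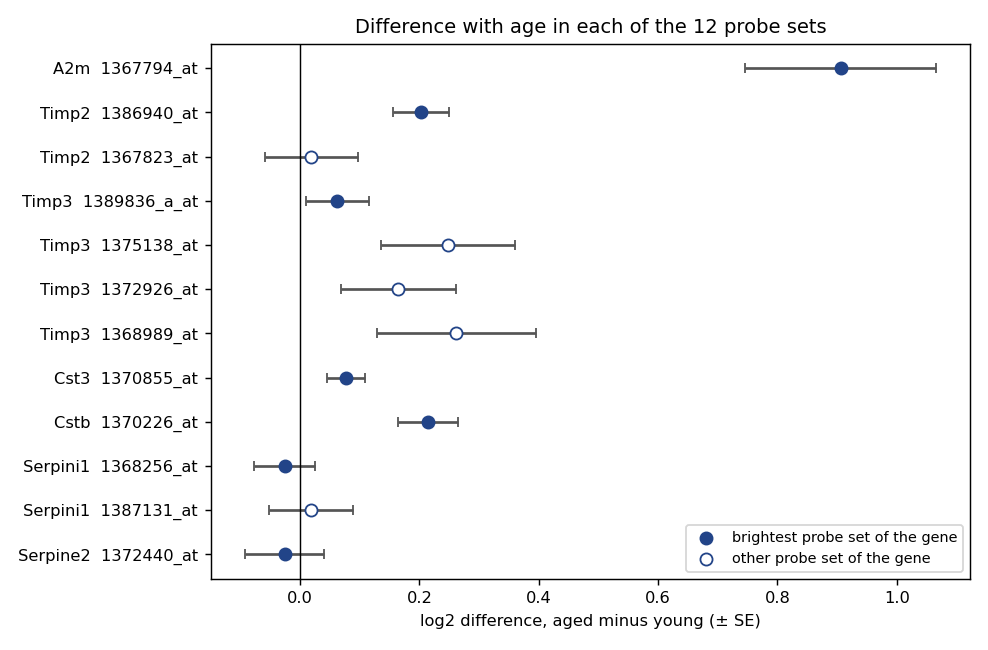
Log2 difference between aged and young arrays (horizontal axis, bars ± SE) for each of the 12 probe sets; filled points are the brightest probe set of a gene and open points the others. The Timp2 probe sets part, at 0.20 and 0.02, and 3 Timp3 probe sets lie further from 0 than the brightest one.

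Cystatin C, encoded by Cst3, is the secreted inhibitor of lysosomal cysteine proteases and is abundant in cerebrospinal fluid. Its log2 signal (1370855_at) had a lowest, median and highest value of 14.32, 14.42 and 14.54 in young arrays. These were 14.42, 14.47 and 14.56 in unimpaired arrays and 14.43, 14.55 and 14.65 in impaired arrays. All 14 aged arrays lay above the young median, yet only 7 lay above every young array, 6 of them impaired and 1 unimpaired. The log2 difference between aged and young was 0.08 ± 0.03 (SE), or 1.06-fold. Cst3 was also the most even member, with a within-group SD of 0.0634, smaller than that of all but 3.59% of genes. Its mean signal over the 23 arrays, 14.485, stood at the 99.9th percentile of genes. The part of this high level in its small spread and differences was not tested.

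Cystatin B, encoded by Cstb, works inside the cell against cathepsins, and its loss in humans causes a progressive myoclonus epilepsy. Its log2 signal (1370226_at) had a lowest, median and highest value of 9.80, 9.98 and 10.06 in young arrays. In unimpaired arrays the values were 10.05, 10.14 and 10.17. In impaired arrays they were 10.01, 10.17 and 10.51. All aged arrays lay above the young median, and 12 of 14 (7 impaired and 5 unimpaired) lay above every young array. The mean was 9.97 ± 0.10 (SD, n = 9) in young and 10.18 ± 0.13 (SD, n = 14) in aged arrays, a log2 difference of 0.21 ± 0.05 (SE), or 1.16-fold. Impaired arrays were more spread, with an SD of 0.16 against 0.04 in unimpaired arrays, a difference in spread that was not tested.

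The serpins of the brain showed no such step. Serpini1 encodes neuroserpin, which neurons secrete and which inhibits tissue plasminogen activator. Its brighter probe set (1368256_at) ran from 10.99 to 11.34 in young arrays (median 11.23), 11.05 to 11.37 in unimpaired arrays (median 11.15) and 11.02 to 11.32 in impaired arrays (median 11.17). The log2 difference between aged and young was -0.03 ± 0.05 (SE), and that of the dimmer probe set (1387131_at) was 0.02 ± 0.07 (SE). Serpine2 encodes protease nexin-1, an inhibitor of thrombin made largely by glia. Its log2 signal (1372440_at) ran from 10.92 to 11.57 in young arrays (median 11.31), 11.20 to 11.31 in unimpaired arrays (median 11.28) and 11.08 to 11.56 in impaired arrays (median 11.26). The log2 difference between aged and young was -0.03 ± 0.07 (SE), with a 95% confidence interval from -0.16 to 0.11. The unimpaired arrays lay inside the range of the young arrays, and no aged array lay above it.

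Set against all genes, 3 of the 7 members (A2m, Timp2 and Cstb) were called higher in aged than in young CA1 at an adjusted p under 0.05 with limma, where 3.09% of 9076 genes were called higher and 0.628% lower. The members were picked from results of this comparison, so nothing is read from that count. The median log2 difference of the 7 was 0.0775, and that of all genes was 0.0112. The Timp2 call was lost when its probe sets were averaged (log2 difference 0.11) and when every array was centred on its median (0.18).

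For impaired against young rats, the same 3 members were called higher, where 3.09% of all genes were called higher and 0.716% lower. For unimpaired against young rats, none of the 7 was called, where 0.617% of genes were called higher and 0.143% lower. At an unadjusted p under 0.05, 893 of the 9076 genes passed in that comparison. Nothing is read from these counts either, and both comparisons use the same young arrays, so their likeness carries no weight of its own. The members' values stood side by side as follows. A2m was higher by 0.99 ± 0.18 (SE) in impaired and 0.80 ± 0.20 in unimpaired rats on the log2 scale. Timp2 was higher by 0.22 ± 0.05 and 0.18 ± 0.06, and Cstb by 0.25 ± 0.06 and 0.16 ± 0.06. Cst3 was higher by 0.11 ± 0.04 and 0.04 ± 0.04, and Timp3 by 0.10 ± 0.06 and 0.01 ± 0.06. On their brightest probe sets the serpins stayed within 0.04 of the young mean in both aged groups. The dimmer Serpini1 probe set differed by -0.006 in impaired and 0.05 in unimpaired rats. Every impaired array lay above every young array for A2m and Timp2, an ordering seen in 0.452% of genes.

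Without unimpaired replicate 1, which was low for both genes, A2m and Timp2 were called in unimpaired rats as well, with a log2 difference of 1.01 for A2m. A2m alone was called there without impaired replicate 8 or without young replicate 5. Over all genes, fits that left out 1 array called 31 to 65 genes higher in unimpaired rats. The members were picked with the age differences known, and leaving out an array low for A2m and Timp2 raises their differences. Nothing is therefore read from these calls.

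**Figure D3:**
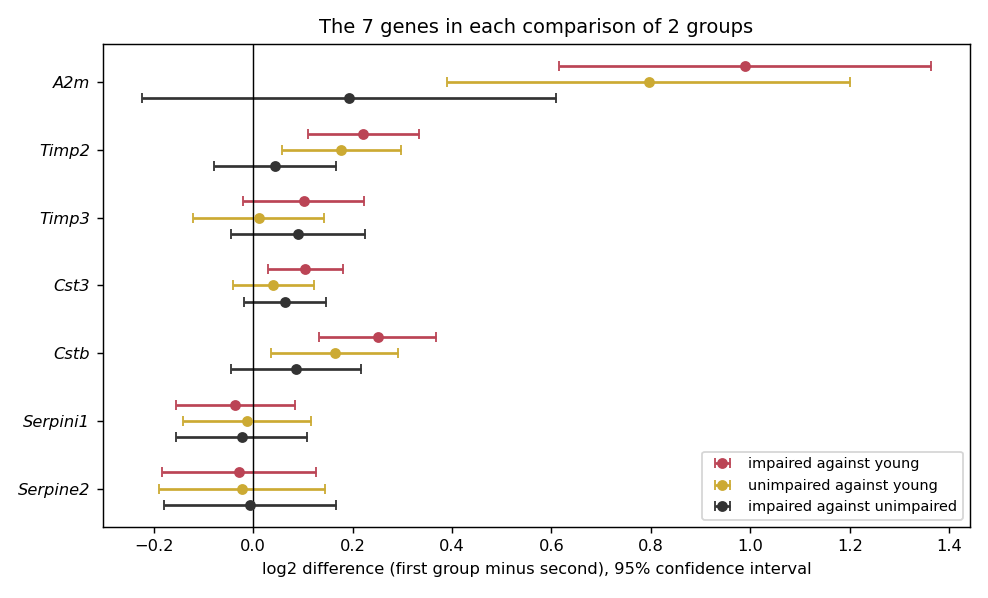
Log2 differences of the 7 genes between pairs of groups (horizontal axis, first group minus second), with 95% confidence intervals from the fit over all genes. The genes were picked with the age differences known, so the intervals against young rats are descriptions and not tests. The intervals of impaired against unimpaired (black) include 0 for all 7 genes, and the widest is that of A2m, from -0.22 to 0.61.

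The comparison of impaired with unimpaired rats asked whether the inhibitors differed with learning ability at the same age. None of the 7 members was called with limma, where 0% of the 9076 genes were called in either direction; 629 genes had an unadjusted p under 0.05, and the smallest adjusted p was 0.256. A2m was higher in impaired rats by 0.19 ± 0.20 (SE) on the log2 scale, with an interval from -0.22 to 0.61 (adjusted p = 0.888). Without unimpaired replicate 1 that difference was -0.02. Leaving out another array gave up to 0.27, and the alternative settings of processing and fit gave 0.14 to 0.35. For Timp2 the difference was 0.04 ± 0.06, with an interval from -0.08 to 0.17 (adjusted p = 0.923), and -0.01 without unimpaired replicate 1.

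Cst3, with the narrowest interval of the 7, also had their smallest adjusted p, at 0.784, with a log2 difference of 0.06 ± 0.04 (SE) and an interval from -0.02 to 0.15. Cstb differed by 0.09 ± 0.06, with an interval from -0.04 to 0.22, and Timp3 by 0.09 ± 0.07, with an interval from -0.04 to 0.23. The serpins differed by -0.02 ± 0.06 for Serpini1 (interval from -0.16 to 0.11) and by -0.01 ± 0.08 for Serpine2 (interval from -0.18 to 0.17). The median log2 difference of the 7 members was 0.0645, and that of all genes was -0.00518. These intervals state which sizes the arrays leave possible, and an adjusted p above 0.05 does not show that the groups are alike.

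Proteases of the classes that the members inhibit, with related genes, were then described from lists of genes. These lists, like those of other inhibitors and of cell types, were drawn up with earlier results of these arrays known. Their counts are therefore descriptions and not independent evidence, and each adjusted p is that gene's own over all 9076 genes. In counts over the lists, genes are said to rise or fall where they passed an adjusted p under 0.05 with limma. Over all 9076 genes, 3.09% rose and 0.628% fell in aged against young rats, with a median log2 difference of 0.0112. Of the cysteine proteases that cystatins inhibit, 5 of 9 tested genes rose with age and none fell, with a median log2 difference of 0.222. Ctsz rose from 6.76 ± 0.41 (SD) in young to 7.75 ± 0.26 in aged arrays, a log2 difference of 0.99 ± 0.13 (SE, adjusted p = 7.01e-05). Cathepsin S (Ctss), an enzyme of microglia, rose by 0.32 ± 0.05 (adjusted p = 5.07e-04). Legumain (Lgmn) rose by 0.24 ± 0.05 (adjusted p = 0.00514) and cathepsin B (Ctsb) by 0.14 ± 0.03 (adjusted p = 0.0182). Ctsh, named after its value was seen, rose by 0.22 ± 0.06 (adjusted p = 0.0381), a call lost in 14 of 23 fits that left out 1 array. In impaired against young rats 4 of the 9 passed the threshold as higher (3.09% of all genes did), and 8 lay above 0. In unimpaired against young rats 2 passed as higher (0.617% of all genes did), and all 9 lay above 0. These comparisons share the young arrays. In the list of metalloproteinases drawn up around the Timps, which also holds Ece1, 5 of 11 tested genes lay above 0 (median -0.00999). A further 19 on the array, among them Mmp2, Mmp3 and Mmp9, were too dim to test. None of the 11 rose past the threshold, and 1 fell. That gene was Mmp14, the membrane enzyme that activates Mmp2 together with Timp2, which fell by 0.36 on the log2 scale (SE 0.10, adjusted p = 0.0497). Its call was lost in 17 of 23 such fits. Of the serine proteases and the plasminogen system, 1 of 9 tested genes rose. It was Plat, tissue plasminogen activator and the target of neuroserpin, at 0.24 ± 0.07 (adjusted p = 0.0495), lost in 16 of 23. Another 14 of that list on the array, among them Plg, Plau and F2, were too dim to test.

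**Figure D4:**
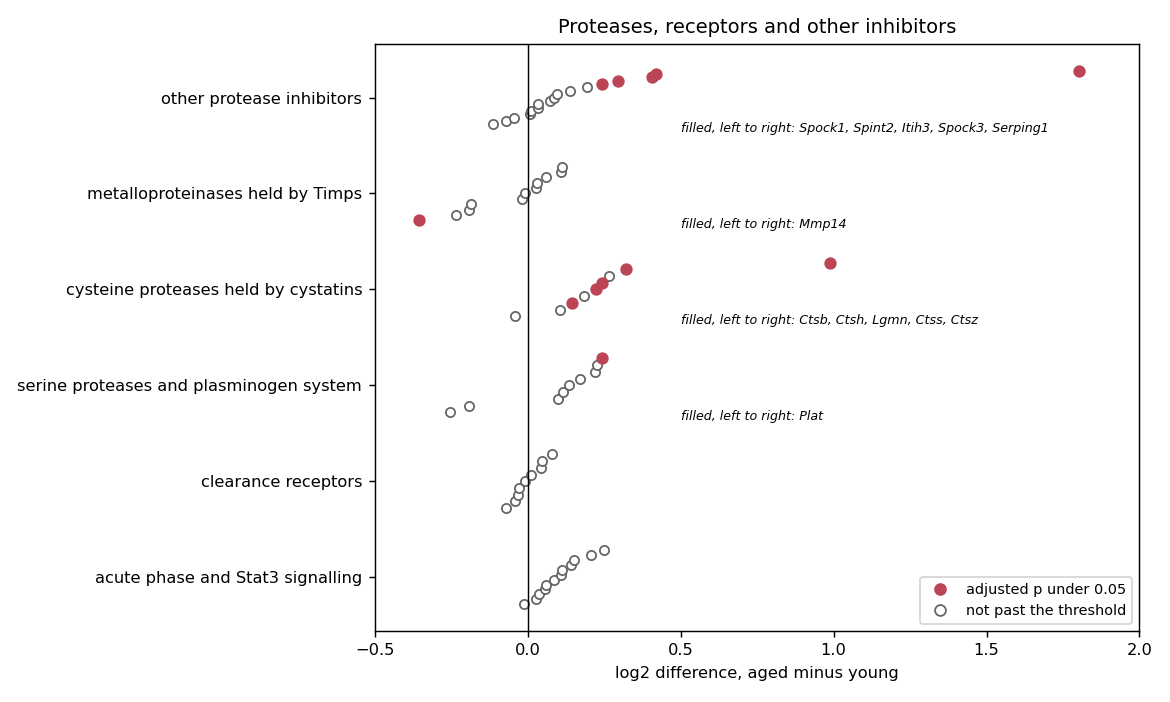
Log2 difference between aged and young arrays (horizontal axis) for the tested genes of 6 lists, with 1 point per gene; filled points passed an adjusted p under 0.05 with limma. Of the cysteine proteases 5 of 9 are filled and lie to the right of 0, while a single metalloproteinase, Mmp14, is filled and lies to the left.

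Among 17 other protease inhibitors tested, of 38 on the array, 5 rose with age and none fell, with a median log2 difference of 0.0854. Over all genes 3.09% rose and 0.628% fell, with a median of 0.0112. Itih3, a heavy chain of the inter-alpha-trypsin inhibitor family, rose from 12.02 ± 0.16 (SD) to 12.43 ± 0.15, by 0.41 ± 0.07 (SE, adjusted p = 6.03e-04). Serping1, the inhibitor of the first complement proteases, rose by 1.80 ± 0.36 (adjusted p = 0.00514) from a young mean of 4.21, near the limit on dim signals. The testican Spock3 rose by 0.42 ± 0.09 (adjusted p = 0.00681) and Spint2 by 0.29 ± 0.07 (adjusted p = 0.0121). The fifth was Spock1, named after its value was seen, at 0.24 ± 0.06 (adjusted p = 0.0341), lost in 7 of 23 fits that left out 1 array. Timp4, a further Timp, had a difference of 0.03 ± 0.06, and Timp1 was too dim to test.

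Neither the list of endocytic and sorting receptors around Lrp1 nor that of the acute phase had a called gene. Over all 9076 genes, 3.09% were called higher and 0.628% lower in aged against young rats. At these shares a list of 9 or 12 genes can hold no call, so nothing is read from that. Of 9 genes tested in the receptor list, which also holds sortilins and the chaperone Lrpap1, none passed in aged against young rats. Lrp1, the receptor of A2m complexes, had a log2 difference of 0.08 ± 0.05 (SE, adjusted p = 0.471), and Sort1 one of 0.04 ± 0.03 (adjusted p = 0.578). Of 12 acute phase and Stat3 genes tested of 27 on the array, none passed, although 11 lay above 0 and their median was 0.097. Il6st, the shared receptor chain of the Il6 family, had a difference of 0.11 ± 0.04 (adjusted p = 0.146), and Cp, ceruloplasmin, one of 0.25 ± 0.09 (adjusted p = 0.162). Il6, Il1b, Socs3, Hp and Lcn2 were too dim to test. None of the genes in these 6 lists was called between impaired and unimpaired rats, where 0% of all genes were called.

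Markers of glia moved in the same arrays. Of 11 microglial markers tested, 7 rose and none fell (median log2 difference 0.351), where 3.09% of all genes rose and 0.628% fell (median 0.0112). Fcer1g led at 0.59 ± 0.08 (SE), with C1qa at 0.55 ± 0.08. Ctss was counted here as well as among the cysteine proteases. The mean level of the 11 ran from 7.80 to 8.25 in young, 8.27 to 8.56 in unimpaired and 8.25 to 8.66 in impaired arrays. Itgam, Cd68 and Ptprc were too dim to test. Of 11 astrocyte markers, 3 rose and none fell (median 0.118), with Gfap at 0.51 ± 0.07 and Agt at 0.25 ± 0.05, and their mean level ran from 11.35 to 11.62 in young and from 11.49 to 11.74 in impaired arrays. Of 9 endothelial markers 1 fell (Slco1c1), of 9 oligodendrocyte markers 1 fell (Mal), and of 5 markers of pericytes and smooth muscle 1 fell (Myh11). The Mal call was lost in 18 of 23 fits that left out 1 array and the Myh11 call in 10. Of 4 meningeal markers Ptgds rose while Igf2 and Dcn fell, and Dcn was also the 1 of 5 CA1 markers to fall. No marker passed among 8 of neurons, 8 of inhibitory neurons, 7 of CA3 and CA2, 3 of oligodendrocyte precursors, 2 of dentate granule cells, 1 of choroid plexus (Ttr) and 1 of blood (Hbb). The part of any of these in the differences of A2m, Timp2 and Cstb was not tested.

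Variation between rats of 1 group was then compared between members, with group means removed. Of 21 pairs of members over 23 arrays, none passed a permutation test after Benjamini-Hochberg adjustment (100000 permutations within groups, 2-sided). The smallest adjusted p was 0.306 for Pearson's r and 0.195 for Spearman's rho. The largest relation was that of Timp3 with Serpine2, with r = 0.474 (permutation p = 0.0417) and rho = 0.514 (permutation p = 0.0186), and r = 0.375 without the 2 arrays farthest from the median. Timp3 ran against Serpini1 with r = -0.461 (permutation p = 0.0359) and rho = -0.512 (permutation p = 0.018), and r = -0.438 without 2 arrays. A2m and Timp2 had r = 0.448 (permutation p = 0.0984) and rho = 0.351 (permutation p = 0.12). That relation fell to r = 0.142 without 2 arrays, so it rests on those arrays.

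**Figure D5:**
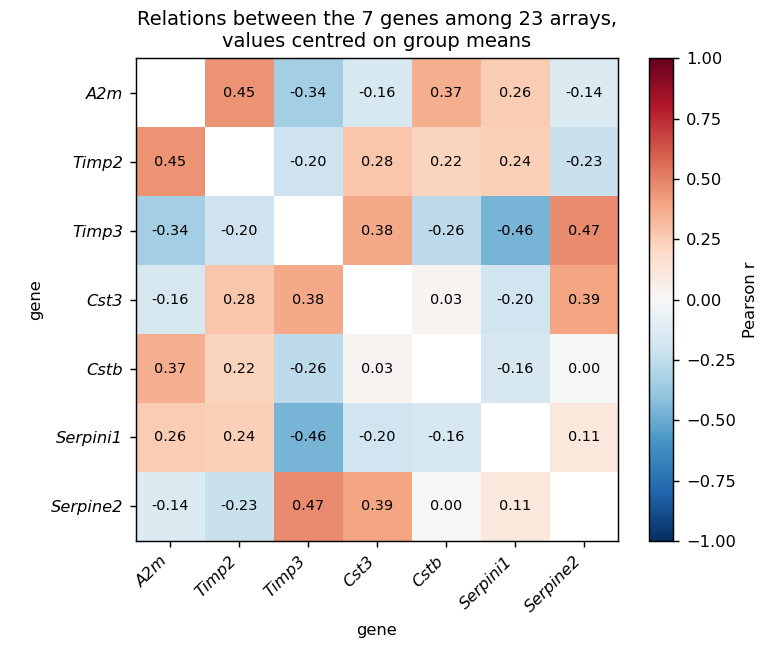
Pearson's r between each pair of the 7 genes over 23 arrays after group means were removed (rows and columns are genes, the colour scale runs from -1 to 1). The values lie between -0.46 for Timp3 with Serpini1 and 0.47 for Timp3 with Serpine2, and no pair passed after adjustment.

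The genes whose pattern among rats was most like each member were named by the highest r over the 23 arrays with group means removed. These are descriptions, since arrays share their signal level and all 9076 genes were searched. Serpine2 ran closest to Polr2m (r = 0.869), Pdgfra (0.854), a marker of oligodendrocyte precursors, and Wdr13 (0.850). Serpini1 ran closest to Pgrmc1 (r = 0.841), Cdh11 (0.770) and Gnai1 (0.758). Timp3 ran closest to Epb41l1 (r = 0.776), Nipal2 (0.766) and the neurotrophin receptor Ntrk2 (0.748), and the same 3 genes led on values as deposited. A2m ran closest to Cops7a (r = 0.758), Fnip1 (0.756) and Fundc2 (0.751), and Timp2 to Rnaset2 (0.692), Tmem53 (0.688) and Eif2s3 (0.682). Cstb ran closest to Dpm1 (r = 0.808), Cacna2d3 (0.785) and Tmem208 (0.778), and Cst3 to Id1 (0.752), Dzip1 (0.724) and Bgn (0.701). Without the 2 arrays farthest from the member's median, r rose for Pgrmc1 (0.870) and Eif2s3 (0.720) and fell for the others. The lowest were then Tmem53 (0.466), Ntrk2 (0.526), Rnaset2 (0.548), Nipal2 (0.549) and Cacna2d3 (0.557). Rnaset2 also ran closest to Timp2 on values as deposited, which keep the group differences (r = 0.858), while Cstb then ran closest to Gpnmb (0.820), which was named after its value was seen.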

How the data were processed

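RNA from rat CA1 was measured on Affymetrix arrays. The deposited values are log2 signals from GCRMA, which the authors ran according to their processing notes; its version is not given in the sources used here. They were used as deposited. GCRMA subtracts a modelled background, which weighs most on dim probe sets. Of 31099 probe sets, 20832 carried 1 symbol, 436 several and 9831 none. Each gene was represented by its brightest probe set that exceeded a log2 value of 4 on 6 or more arrays (9076 genes). Group means were compared in limma (3.58.1, under R 4.3.3), and p-values were adjusted by Benjamini-Hochberg in each of 4 comparisons; the fit was tested on simulated data. Aged rats were averaged with weights of 8 and 6 arrays. The log2 differences are fold changes on the array scale.

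The members and lists were chosen with earlier results of these data known, so the members' differences from young rats carry no p-value, and counts over the lists are descriptions. In each pathway list up to 4 called genes with the smallest p were named, or 2 where none was called, and up to 3 in each marker list. For each member the 3 genes with the highest r were named. Where nothing says how arrays were processed in batches, none was modelled. Plots were made in Python 3.11.15 using matplotlib 3.10.9. The alternatives covered the limit on dim signals, the probe sets, normalization, array weights, moderation, RNA quality, a replicate block, the groups in the fit and each array left out.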

Additional observations from a re-analysis of the deposited data

Results flagged for a closer look

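Among 36 combinations of a member probe set and a group, 4 held an array far from the rest of its group by Dixon's test, which chance gives in about 1 in 20 groups. A2m in aged unimpaired replicate 1 was the lowest of its group at 6.52, with the next array at 7.49. Cstb in aged unimpaired replicate 7 was the lowest at 10.05, with the next at 10.13. Timp3 on the dim probe set 1368989_at was lowest in young replicate 5, at 2.89 against 3.78 for the next array. Timp3 on 1389836_a_at was highest in young replicate 1, at 9.24 against 9.04.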

How the results depend on the processing

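A2m, Timp2 and Cstb kept their calls for aged and for impaired against young rats in all 23 fits that left out 1 array. The members were picked with the age differences known, so nothing is read from calls of members kept, lost or gained here. The Timp2 call was lost with the mean of its probe sets (0.111 for aged and 0.101 for impaired against young) and with centred arrays (0.180 and 0.205; centring moved the median of genes by less than 0.1), and the Cstb call with the replicate block (0.199). Timp3 as the mean of its probe sets differed by 0.184. Same-numbered arrays did not deviate together (1 of 20 pairs over r = 0.1, median -0.0519), so replicate numbers were not used as pairs; the replicate block gave 137 genes higher and 22 lower in aged rats instead of 280 and 57, 147 and 18 in impaired instead of 280 and 65, and 28 and 3 in unimpaired instead of 56 and 13, with 1 lower in impaired against unimpaired rats, 3 other inhibitors, 2 cysteine proteases and 0 serine proteases. Lower genes were 105, 134 and 22 with quantile normalization and 136, 149 and 30 with centred arrays, where the share of higher calls went from 83.1%, 81.2% and 81.2% to 63.9%, 66.3% and 62.5%. Array weights gave 111 higher and 38 lower genes in unimpaired rats, RNA quality as covariate 22 lower, and a fit of the compared groups alone 36 lower in impaired against young and 1 in impaired against unimpaired rats. With a limit of log2 6, or trend and robust moderation, 1 member (A2m) was called in unimpaired rats. Over all genes, the alternative settings called 28 to 111 genes higher in that comparison. The metalloproteinase count was 0 without the limit, with the mean of probe sets and with weights, 2 with quantile or centred values and 3 with RNA quality, and the serine protease count 0 without the limit, with centring and with weights. Impaired against unimpaired differences changed sign for Timp2 with mean probe sets (-0.0242), Serpini1 with weights (0.016) and Serpine2 with centring (0.00794), RNA quality (0.0405) and the replicate block (0.00433). Leaving out 1 array gave -0.0236 to 0.270 for A2m, -0.0132 to 0.0782 for Timp2, -0.0490 to 0.0136 for Serpini1 and -0.0484 to 0.0201 for Serpine2, and counts of 181 to 346 higher and 39 to 81 lower genes (aged), 185 to 379 and 40 to 90 (impaired), 31 to 65 and 4 to 26 (unimpaired), 0 to 2 members in unimpaired rats, 0 to 2 metalloproteinases and 0 to 2 serine proteases. The cause of these changes was not tested.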
